A study of Mus musculus with 30 samples.

Results

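Integrins are the receptors by which cells hold on to matrix and to each other, and this account follows 42 mouse genes of integrin chains and focal adhesion proteins through 2 stages of B cell development. The genes were taken by name from the count tables, and a gene was described when it had 10 or more counts in at least 3 of the 18 RNA libraries. Of the 42 genes, 36 met that rule, as did 12625 of the 24459 genes in the files. The other 6 were Itgb8 with no count in any library, Itga7 with a highest count of 2, Itga8 with 4, Parva with 5, Bcar1 with 8 and Tln2 with 11. Fold changes of these 6 were not read.

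The mice were C57BL/6 animals carrying the G158R substitution of Aiolos, a DNA-binding protein with zinc fingers whose gene is Ikzf3. Bone marrow came from mice with no copy of the allele (Ikzf3+/+, here WT), with 1 copy (Ikzf3+/m, het) or with 2 copies (Ikzf3m/m, homo), and the labels give no age. Both stages were sorted as AA4.1+ B220+ cells without surface IgM, pre-pro B being CD24- and CD43+ and pre-B being CD24+ and CD43-, with 3 libraries per stage and genotype. Occupancy by Aiolos and by its relative Ikaros was measured by chromatin immunoprecipitation with sequencing (ChIP-seq) in WT and homo thymocytes and in WT and homo pre-B cells grown from B220+ IgM- marrow on Tst-4 stroma with IL-7, SCF and Flt3L. Each ChIP sample was 1 library.

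An integrin is a pair of one alpha and one beta chain, and the pair decides the ligand. The alpha 4 chain with beta 1 binds VCAM-1 on stromal cells, alpha L with beta 2 binds ICAM-1, and alpha 6 binds laminin. Talin and kindlin bind the beta chain tail to switch the receptor on, while vinculin, zyxin, paxillin, tensin and the complex of ILK, PINCH and parvin tie it to actin, and the kinases FAK and Pyk2 signal from it. In bone marrow, early B cell precursors depend on contact with stromal cells, and integrins are among the receptors that make that contact.

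The promoters of 3 of these genes lay under an Ikaros region of the cultured pre-B cells, and they are shown because in those cells the binding data touch the start sites of the set there. The sequences are from RefSeq on GRCm38.p6, 250 bases before to 50 bases after the start, read 5′ to 3′ on the strand of the gene. Capitals mark GGGAA or its complement TTCCC, the core of the motif bound by Ikaros family zinc fingers. The Cd44 promoter is at chr2:102901616-102901915 on the minus strand, that of Vcl at chr14:20929148-20929447 on the plus strand, and that of Tln1 at chr4:43562534-43562833 on the minus strand.
Cd44: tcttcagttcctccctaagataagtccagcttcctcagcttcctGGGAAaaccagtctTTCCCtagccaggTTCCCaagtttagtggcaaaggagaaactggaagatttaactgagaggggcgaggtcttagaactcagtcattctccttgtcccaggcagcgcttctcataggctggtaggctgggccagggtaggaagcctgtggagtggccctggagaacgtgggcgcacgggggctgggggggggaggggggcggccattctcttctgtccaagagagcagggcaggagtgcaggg
Vcl: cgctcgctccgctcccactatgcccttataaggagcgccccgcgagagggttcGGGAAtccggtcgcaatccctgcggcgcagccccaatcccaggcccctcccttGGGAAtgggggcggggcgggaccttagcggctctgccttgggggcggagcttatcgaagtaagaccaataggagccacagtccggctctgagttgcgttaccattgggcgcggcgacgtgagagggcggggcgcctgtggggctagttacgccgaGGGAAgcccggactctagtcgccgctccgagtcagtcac
Tln1: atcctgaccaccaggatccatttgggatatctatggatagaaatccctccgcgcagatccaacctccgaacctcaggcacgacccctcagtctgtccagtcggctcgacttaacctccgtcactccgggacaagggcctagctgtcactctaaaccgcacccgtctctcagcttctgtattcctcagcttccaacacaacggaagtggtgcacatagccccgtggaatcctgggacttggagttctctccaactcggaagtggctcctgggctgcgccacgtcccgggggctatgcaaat
The Cd44 window held 3 matches and the Vcl window 3, and the letters do not occur in the Tln1 window. GGGAA on either strand is common: 62.7% of the 32851 promoters in the table hold it, and 25 of the 37 promoter entries of the set (67.6%), which cover 30 of its genes.

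The libraries held between 1888871 and 9048055 counts in genes, and the shallowest by far was pre-B homo replicate 3. A substitution cannot be checked in gene counts. Counts of Xist and of Y-linked genes put het replicate 2 and homo replicates 1 and 3 of both stages as XY and the other 12 libraries, including every WT library, as XX. A fit of the XX libraries alone therefore holds 1 homo library per stage, which is assumed to vary like the other groups, and its values for homo are no check on replicates. Some abundant genes had nearly the same count whatever the depth, with Actb between 2335 and 2650 in pre-pro B, and how this bears on folds between libraries of unequal depth was examined only by the library size covariate. A list of 10 B lineage genes summed to between 452 and 695 CPM (counts scaled to a common library size) in pre-pro B and between 3240 and 5690 in pre-B, while 10 genes of plasmacytoid dendritic cells summed to between 4040 and 6290 CPM in pre-pro B and to between 720 and 942 in pre-B. In bulk RNA fewer cells of a type and less RNA per cell cannot be told apart. The labels do not say whether libraries of a group came from separate mice, so p-values measure the spread between these samples.

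**Figure D1:**
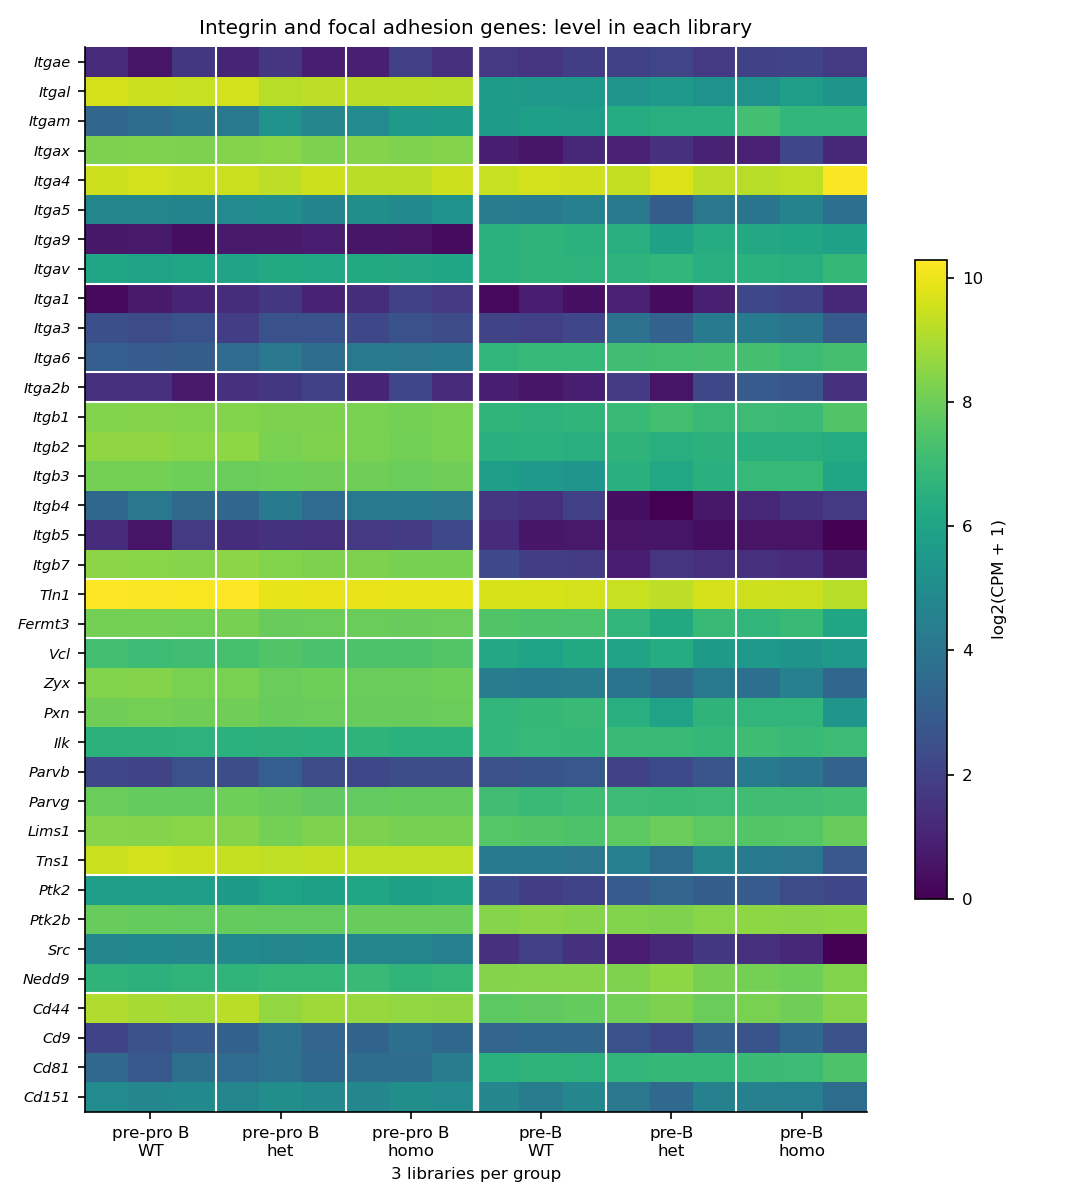
Heat map of the level of the 36 described genes, as log2 of CPM plus 1, in each of the 18 libraries (columns, 3 per group). White lines separate groups and gene roles, in the order leukocyte, fibronectin and VCAM-1, laminin and collagen, and platelet alpha chains, beta chains, activators, adaptors, kinases and scaffolds, and tetraspanins and other adhesion receptors. The stage boundary is sharper than any genotype boundary: Itgax, Itgb7, Tns1 and Zyx are high on the left, and Itga9, Itga6 and Cd81 on the right.

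From pre-pro B to pre-B, WT cells carried less RNA of some integrins and more of others. CD11c (Itgax), beta 7 (Itgb7), LFA-1 alpha (Itgal), tensin (Tns1), zyxin (Zyx) and FAK (Ptk2) were far lower in pre-B, and alpha 9 (Itga9), alpha 6 (Itga6) and CD81 (Cd81) far higher. Of the 36 genes tested, 9 were higher and 18 lower in WT pre-B, or 75.0%, where 64.3% of all genes tested were called (edgeR, adjusted p under 0.05). The median log2 difference of the 36 was -0.74, beside -0.01 over all genes. In het cells 9 rose and 22 fell, with 68.1% of all genes called, and in homo cells 11 rose and 21 fell, with 69.1% called. All values below are CPM per library after TMM scaling, with log2 differences ± 1 standard error.

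Among the leukocyte alpha chains, Itgax stood at 305, 313 and 308 CPM in the WT pre-pro B libraries and at 0.799, 0.537 and 1.29 in WT pre-B. CD11c is a dendritic cell integrin, and no library of either stage came near the other stage, a log2 difference of -8.41 ± 0.24 (adjusted p = 4.26e-15). Itgal, the alpha chain of LFA-1, fell from 733 ± 54.9 CPM to 46.7 ± 1.68 (SD, n = 3), a log2 difference of -3.97 ± 0.14 (edgeR adjusted p = 5.58e-14). Itgam, the alpha chain of Mac-1 on myeloid and natural killer cells, went the other way, from 12.0 ± 2.54 to 52.5 ± 2.07 CPM, a log2 difference of 2.12 ± 0.25. Itgae, which pairs with beta 7, was low in both at 1.33 and 2.32 CPM and did not pass the test (adjusted p = 0.166).

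The alpha chains for fibronectin and VCAM-1 diverged. Itga9 had 0.563, 0.666 and 0.311 CPM in WT pre-pro B, from 2 to 4 counts a library, and 93.7, 101 and 93.5 CPM in WT pre-B. It was the largest rise of the set, a log2 difference of 7.51 ± 0.25 (adjusted p = 2.78e-14). Itga4, the VCAM-1 and fibronectin receptor chain of lymphocytes, had 735, 761 and 714 CPM in pre-pro B and 685, 761 and 738 in pre-B, and its libraries overlapped. Its log2 difference was -0.02 ± 0.20 (adjusted p = 0.947). Itgav, the vitronectin receptor chain, rose by 0.63 ± 0.11 from 63.7 to 98.7 CPM, and Itga5, the classical fibronectin receptor chain, had 24.7 and 19.7 CPM with an adjusted p of 0.223.

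Of the laminin and collagen chains, Itga6 rose from 7.51, 6.99 and 7.16 CPM to 108, 117 and 117, a log2 difference of 3.98 ± 0.14 (adjusted p = 5.09e-14). Itga3, another laminin receptor chain, had 4.61 and 3.26 CPM, and the collagen receptor chain Itga1 had 0.648 and 0.400. Neither passed the test, nor did the platelet chain Itga2b at 1.33 and 0.714 CPM. The WT libraries of Itga3 did not overlap between the stages. The share of all genes without overlap is not given here, so this adds no support.

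Of the beta chains, 5 of the 6 tested were called lower in WT pre-B and none higher. Among all 12440 genes tested, 4146 were called lower and 3851 higher. Itgb7, the partner of alpha 4 and alpha E in gut homing receptors, went from 359, 347 and 341 CPM to 3.84, 2.69 and 2.58, a log2 difference of -6.83 ± 0.16 (adjusted p = 4.51e-16). Itgb3, the partner of alpha v and of the platelet chain, fell from 274 to 46.5 CPM (log2 -2.56 ± 0.16), and Itgb4, the partner of alpha 6 in epithelia, from 12.3 to 2.20 CPM (log2 -2.47 ± 0.32). Itgb2, the common leukocyte chain, fell from 371 to 90.0 CPM (log2 -2.04 ± 0.10) and Itgb1 from 326 to 103 CPM (log2 -1.66 ± 0.11). Itgb5, at 1.45 and 0.873 CPM, did not pass (adjusted p = 0.229).

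Of the genes that act inside the cell, both activators and 6 of 8 adaptors tested were called lower and 1 adaptor higher. Kinases and scaffolds were split, 2 higher and 2 lower. These counts too stand beside 4146 lower and 3851 higher of all 12440 genes tested. Talin 1 (Tln1), the main integrin activator, fell by 0.59 on the log2 scale from 1200 to 799 CPM, and kindlin-3 (Fermt3), its partner in blood cells, fell by 0.72 from 279 to 169 CPM. Tns1, which binds beta chain tails and actin, had 709, 768 and 730 CPM in WT pre-pro B and 17.4, 18.4 and 15.8 in WT pre-B, a log2 difference of -5.42 ± 0.23 (adjusted p = 7.00e-13). Zyx, found at adhesions under tension, had 325, 329 and 296 CPM and then 19.5, 18.3 and 19.5, a log2 difference of -4.05 ± 0.17 (adjusted p = 6.38e-13).

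The other adaptors fell less: Pxn by 1.23 on the log2 scale, Vcl by 1.00, Lims1, which encodes PINCH, by 0.93 and Parvg, the parvin of blood cells, by 0.84. Ilk rose by 0.22 on that scale, from 98.1 to 114 CPM (adjusted p = 0.0114), and Parvb had 3.96 and 5.38 CPM with an adjusted p of 0.230. The 2 focal adhesion kinases went opposite ways. Ptk2 had 53.1, 52.4 and 51.5 CPM in WT pre-pro B and 3.84, 2.69 and 3.22 in WT pre-B, a log2 difference of -4.00 ± 0.18 (adjusted p = 1.89e-12), while its relative Pyk2 (Ptk2b) rose from 232 to 349 CPM, by 0.59 ± 0.07. Src fell from 26.3 to 2.13 CPM (log2 -3.63 ± 0.25), and the scaffold Nedd9, also called HEF1 or CasL, rose from 101 to 339 CPM (log2 1.75 ± 0.11).

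Among the tetraspanins and other adhesion receptors, Cd81, a tetraspanin of the B cell surface, rose from 9.92 to 97.6 CPM (log2 3.29 ± 0.22), and Cd44, the hyaluronan receptor, fell from 493 to 218 CPM (log2 -1.18 ± 0.13). Cd9 rose by 0.89 ± 0.32 from 5.07 to 9.55 CPM (adjusted p = 0.0195), but not without pre-pro B WT replicate 1, where the difference was 0.66 (adjusted p = 0.0953). Cd151 was at 28.2 and 23.8 CPM (adjusted p = 0.319). The other 26 WT calls were kept whichever of the WT libraries was left out. The fall of Itgax, Itgb7 and the actin link genes came with a fall of the plasmacytoid dendritic genes, which summed to between 5290 and 5940 CPM in WT pre-pro B and between 879 and 928 in WT pre-B; the part of these cells in the fall was not tested.

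**Figure D2:**
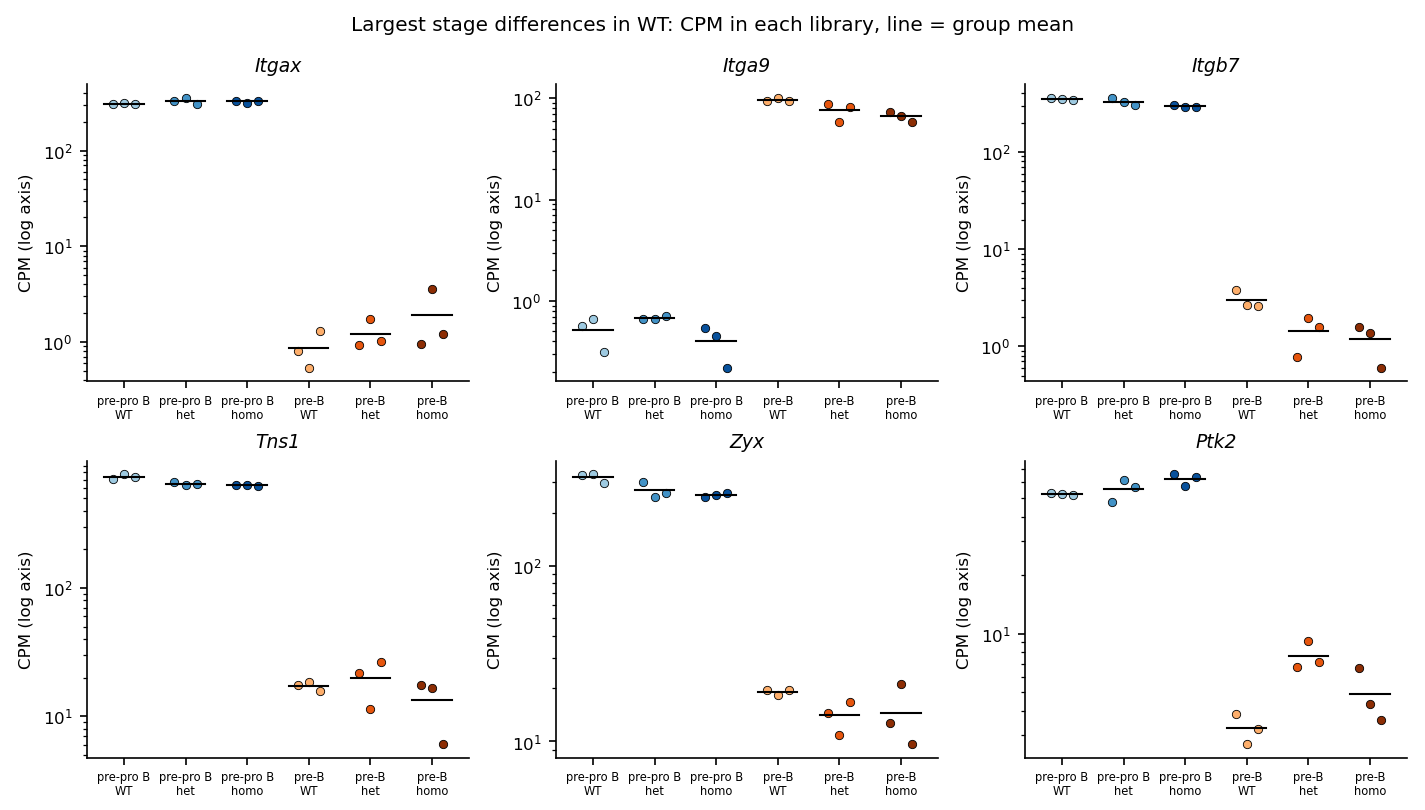
CPM on a log axis of the 6 genes with the largest WT stage difference, one point per library and a line at each group mean, for 3 genotypes in each stage. Itgax, Itgb7, Tns1, Zyx and Ptk2 are high in all 9 pre-pro B libraries and low in all 9 pre-B libraries, and Itga9 is the reverse.

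The first genotype question was what 2 copies of the allele did in pre-pro B cells. Integrin alpha 6 and Mac-1 alpha were higher in homo than in WT, as were Itga1, Itga5, Cd9 and vinculin (Vcl), while LFA-1 and other abundant adhesion genes were slightly lower. Of the 35 genes tested, 6 were higher and 10 lower, or 45.7%, where 22.4% of all genes tested were called. The median log2 difference was 0.02 for the set and 0.01 for all genes. Itga9 was below the count minimum at this stage.

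Itga6 had 7.51, 6.99 and 7.16 CPM in WT, 11.2, 16.5 and 11.6 in het, with 17.1, 16.5 and 18.3 in homo. No het or homo library overlapped WT. The log2 difference was 1.25 ± 0.16 for homo against WT (adjusted p = 0.00144) and held under each of the 13 alternatives run, and 0.87 ± 0.17 for het against WT (adjusted p = 0.0488). That het call was the only one of the set, 1 of 35 or 2.86%, where 0.558% of all genes were called, and it was lost without WT replicate 1 (0.90, adjusted p = 0.162), WT replicate 2 (0.85, adjusted p = 0.192) or het replicate 2 (0.65, adjusted p = 0.134), with a sex term (0.74, adjusted p = 0.121) and with the replicate number as a block (0.86, adjusted p = 0.0572), where Itgam was called in its place (1.16, adjusted p = 0.0196). Without het replicate 1, the shallowest of these 9 libraries, 14 genes of the set were called in het, 4 higher and 10 lower. Without WT replicate 3, 2 were. The shares of all genes called in those fits are not given here, so a change of the set cannot be told from a general one.

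Itgam had 9.58, 11.7 and 14.6 CPM in WT, 17.1, 37.9 and 26.4 in het, with 30.3, 44.8 and 49.7 in homo. The 3 groups ranked WT, het, homo by mean, and het overlapped homo but not WT. The homo difference was 1.78 ± 0.32 (adjusted p = 0.00805), lost with library size as a covariate (1.18, adjusted p = 0.120) or a sex term (1.61, adjusted p = 0.0578). The het difference was 1.20 ± 0.33 (adjusted p = 0.1).

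Markers of 2 cell types that carry Mac-1 also moved in these libraries. A list of 10 genes of natural killer and innate lymphoid cells summed to 102 to 109 CPM in the WT libraries, to 168 to 247 in het, and to 220 to 343 in homo, with 9 of the 10 called higher in homo. A list of 10 myeloid genes summed to 131 to 147 CPM in the WT libraries, to 129 to 171 in het, and to 203 to 259 in homo, with 7 of 9 tested called higher. The part of these cells in the rise of Itgam was not tested. Itga1, found on natural killer and innate lymphoid cells among others, had 0.188, 0.666 and 1.09 CPM in WT and 1.52, 3.05 and 2.29 in homo, with 12 counts in all in WT. Its difference of 1.72 ± 0.52 (adjusted p = 0.0315) was lost without either of WT replicates 1 and 2 or homo replicates 2 and 3 (1.34 to 1.72, adjusted p from 0.0750 to 0.117).

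Of the other 3 genes that were higher, Vcl had 144, 133 and 139 CPM in WT, 157, 177 and 162 in het, with 171, 169 and 183 in homo. WT and homo did not overlap, and the difference of 0.32 ± 0.06 (adjusted p = 0.00437) was kept whichever library was left out; it was 0.26 with library size as a covariate (adjusted p = 0.0759). Cd9, a tetraspanin, had 3.19, 5.16 and 6.85 CPM in WT and 8.87, 12.5 and 10.2 in homo, a difference of 1.02 ± 0.26 (adjusted p = 0.0188), lost without WT replicate 1 (0.80, adjusted p = 0.077), WT replicate 2 (1.02, adjusted p = 0.0655) or homo replicate 2 (0.88, adjusted p = 0.0718). Itga5 had 25.2, 25.1 and 23.8 CPM in WT and 32.7, 29.1 and 37.7 in homo, a difference of 0.41 ± 0.12 (adjusted p = 0.0337) that was called only without homo replicate 2 when 1 library was left out, and was 0.23 with a sex term (adjusted p = 0.284).

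The 10 genes that were lower were abundant ones with small differences. None of these calls was kept in every fit that left out a single library. LFA-1 fell in both chains: Itgal had 794, 714 and 689 CPM in WT and 599, 600 and 582 in homo (log2 -0.32 ± 0.10), and Itgb2 had 386, 377 and 349 and then 293, 275 and 293 (log2 -0.38 ± 0.08). Itgb7 had 359, 347 and 341 CPM and then 303, 292 and 289 (log2 -0.26 ± 0.06). In each the homo libraries lay below every WT library.

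Itgb1 had 325, 329 and 322 CPM in WT and 295, 284 and 299 in homo (log2 -0.17 ± 0.05). The talin gene Tln1 had 1240, 1210 and 1150 CPM and then 986, 958 and 946 (log2 -0.33 ± 0.10), and the kindlin gene Fermt3 had 279, 281 and 275 and then 250, 240 and 244 (log2 -0.20 ± 0.07). Both proteins switch integrins on.

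The adaptors that fell were zyxin, tensin, paxillin and PINCH. Zyx had 325, 329 and 296 CPM in WT and 246, 252 and 258 in homo (log2 -0.34 ± 0.07), and Tns1 had 709, 768 and 730 and then 637, 632 and 624 (log2 -0.23 ± 0.07). Pxn had 268, 283 and 262 CPM and then 240, 239 and 249 (log2 -0.17 ± 0.06), and Lims1 had 341, 333 and 349 and then 309, 287 and 291 (log2 -0.22 ± 0.07). Groups again did not overlap in any of the 4. The same held for every gene of the set called against WT in either stage, so it adds no support. The share of all genes without overlap is not given here.

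Genes of plasmacytoid dendritic cells were lower as well, summing to 5290 to 5940 CPM in the WT libraries and 4040 to 4260 in homo, with 5 of 10 called lower. The part of such cells in the falls was not tested.

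The direction also went with the level of the genes. Of the 10 genes of the set above 300 CPM, 7 were called lower and the median difference was -0.24, beside -0.21 for the 555 genes of that level; below 10 CPM the set's median was 0.59 and that of all 2579 genes 0.17. The homo libraries were deeper, from 8592557 to 9048055 counts, than the WT ones, from 5443344 to 6492192. With library size as a covariate only Itga6 was still called among the 16 (1.03, adjusted p = 0.0448), and with a sex term Itga6 and Vcl. The fit of the XX libraries alone, with its 1 homo library, called 3, namely Itga6, Itgam and Cd9. When each library was left out, only Itga6, Itgam and Vcl kept their calls every time, and the number called dropped from 16 to 3 when WT replicate 1 was removed, to 5 for WT replicate 2, to 7 for homo replicate 2 or homo replicate 3, and to 9 for WT replicate 3 or homo replicate 1. Itgb2 and Zyx lost theirs only without WT replicate 1 (-0.35 and -0.32, adjusted p = 0.0558 and 0.0511), and the other 11 lost theirs without at least 3 single libraries. Of these, Itgal, Itgb1, Tln1, Pxn, Fermt3 and Tns1 lost theirs whichever library was left out. Pxn and Fermt3 also lost theirs with size factors by the DESeq2 method, with no count filter and with DESeq2. The shares of all genes called in these alternative fits are not given here. A loss of calls in the set therefore cannot be told from a general one.

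**Figure D3:**
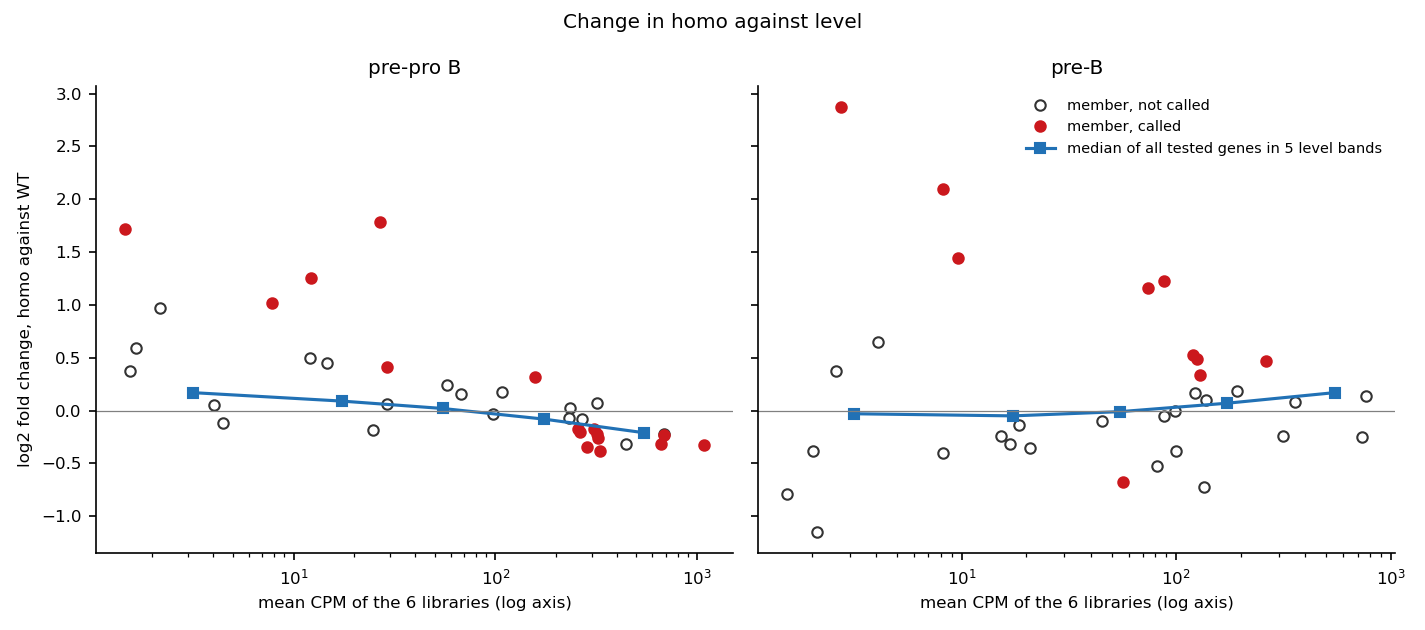
Log2 fold change of homo against WT (y axis) by the mean CPM of the 6 libraries compared (log x axis), in pre-pro B on the left and pre-B on the right, one point per gene of the set, filled where called; squares are medians of all tested genes in 5 level bands. In pre-pro B the called genes above 100 CPM, other than Vcl, lie between -0.17 and -0.38, on the side to which the medians run (-0.21 above 300 CPM), while Itga6, Itgam, Itga1 and Cd9 lie far above them.

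Homo and het pre-pro B were close for these genes. None of 35 was called by edgeR or DESeq2 between them, with 3 at an unadjusted p under 0.05, where 0.0164% of all genes were called; without het replicate 2 there was 1. Cd44, which was not called in homo against WT, had 528, 486 and 466 CPM in WT, 602, 398 and 452 in het, with 415, 396 and 384 in homo.

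In pre-B cells most genes of the set that changed with the allele were higher. The platelet chain Itga2b, the laminin receptor chain Itga3, Itgam, Itgb3 and beta-parvin (Parvb) were at least 2-fold higher in homo than in WT, and Itga6, Itgb1, Cd44 and Cd81 rose by less; vinculin alone fell. Of the 33 genes tested, 9 were higher and 1 lower, or 30.3%, where 15.9% of all genes were called. The median difference was 0.00 for the set and 0.02 for all genes. In het, 4 were higher and 1 lower, or 15.2%, where 6.18% of all genes were called. Itga1, Itgax and Itgb5 were below the count minimum at this stage.

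Itga3 had 3.36, 2.87 and 3.54 CPM in WT, 13.6, 8.39 and 17.7 in het, with 18.2, 14.4 and 6.61 in homo. Every het and homo library exceeded every WT one, and het and homo overlapped. The difference was 2.1 ± 0.37 in homo (adjusted p = 0.00387), called under all 13 alternatives, and 2.03 ± 0.37 in het (adjusted p = 0.00928), lost without WT replicate 1 (2.05, adjusted p = 0.0523) or WT replicate 2 (1.95, adjusted p = 0.0547). Homo against het gave 0.07 ± 0.32 (adjusted p = 0.970).

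Itgam rose again, with 50.5, 54.6 and 52.4 CPM in WT, 81.7, 89.3 and 92.4 in het, with 147, 110 and 110 in homo. The 3 genotypes did not overlap and ran in the order of the allele's copies. The difference from WT was 1.23 ± 0.13 in homo (adjusted p = 0.000227), called under all 13 alternatives, and 0.73 ± 0.13 in het (adjusted p = 0.00931), lost without WT replicate 1 (0.70, adjusted p = 0.0589) or WT replicate 3 (0.73, adjusted p = 0.053). Homo against het gave 0.49 ± 0.13 (adjusted p = 0.103).

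Natural killer and myeloid genes were scarce at this stage. The 10 natural killer genes summed to between 2.88 and 4.12 CPM in WT and between 23.3 and 27.6 in homo, with Tbx21 at 0 in homo and Ncr1, Gzma, Gzmb and Eomes at 0 in WT. The 10 myeloid genes summed to between 4.66 and 6.71 CPM in WT and between 7.61 and 10.8 in homo, with Ctsg at 0 in both. Their part in the rise of Itgam was not tested.

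Itgb3 had 52.3, 46.4 and 40.8 CPM in WT, 92.4, 68.6 and 90.5 in het, with 118, 119 and 67.9 in homo. Het and homo lay above WT and overlapped each other. The difference was 1.16 ± 0.21 in homo (adjusted p = 0.00481), called under all 13 alternatives, and 0.85 ± 0.21 in het (adjusted p = 0.0432), called when 1 library was left out only without het replicate 2 (0.97, adjusted p = 0.034).

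Itga2b, the chain that joins beta 3 on platelets and megakaryocytes, was rare, with 0.799, 0.537 and 0.806 CPM in WT, 2.49, 0.493 and 3.63 in het, with 6.82, 5.71 and 1.80 in homo, or 13, 43 and 83 counts in all. Homo lay above WT and het overlapped both. The homo difference was 2.87 ± 0.61 (adjusted p = 0.00908), called under all 13 alternatives. A list of 9 megakaryocyte and platelet genes summed to 2.74 to 5.43 CPM in the WT libraries, to 8.39 to 16.8 in het, and to 8.41 to 32.7 in homo. Of the 3 that could be tested, 2 were called higher in homo. Pf4, Ppbp, Gp1bb, Gp6 and Treml1 were among those at 0 in WT pre-B, and none of the 9 was at 0 in homo. In pre-pro B, where neither Itga2b nor Itgb3 was called, 3 of the 9 had any count in WT and 8 in homo. The sums there were 5.45 to 11.7 CPM in WT and 7.95 to 10 in homo. The part of such cells in the rise of Itga2b and Itgb3 was not tested.

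Parvb, which links ILK to actin, had 4.79, 5.37 and 5.96 CPM in WT, 3.12, 3.95 and 5.52 in het, with 18.7, 14.4 and 8.41 in homo. Het stayed with WT and homo stood above both. The difference from WT was 1.44 ± 0.29 (adjusted p = 0.00773), called under all 13 alternatives. Against het it was 1.79 ± 0.30 (adjusted p = 0.0166), the only call of 33 (3.03%) in that comparison, where 1.89% of all genes were called. The call against het was lost without het replicate 1 (1.60, adjusted p = 0.0907), homo replicate 1 (1.52, adjusted p = 0.0628) or homo replicate 2 (1.80, adjusted p = 0.0697), and without homo replicate 3 there were 3 calls.

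The remaining rises were smaller and in abundant genes. Itgb1 had 104, 99.9 and 105 CPM in WT, 120, 144 and 123 in het, with 132, 128 and 178 in homo (log2 0.49 ± 0.14, adjusted p = 0.0374). Cd44 had 206, 219 and 230 CPM in WT, 273, 306 and 254 in het, with 299, 267 and 345 in homo (log2 0.47 ± 0.12, adjusted p = 0.0281). Both, like Cd81, were highest in the shallow homo replicate 3. Between 100 and 300 CPM, where these genes lie by mean, the median difference of all 2568 genes was 0.07. Above 300 CPM it was 0.17 for 643 genes.

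Cd81 had 92.9, 102 and 98.5 CPM in WT, 111, 115 and 113 in het, with 128, 130 and 168 in homo (log2 0.53 ± 0.12, adjusted p = 0.012). Itga6 had 108, 117 and 117 CPM in WT, 141, 143 and 152 in het, with 152, 130 and 152 in homo (log2 0.34 ± 0.10, adjusted p = 0.0449). None of the 4 genes overlapped between WT and homo, which held for every call of the set against WT and adds no support. Without homo replicate 3 the differences were 0.33 for Itgb1 (adjusted p = 0.0408), 0.37 for Cd44 (adjusted p = 0.0284), 0.41 for Cd81 (adjusted p = 0.00762) and 0.30 for Itga6 (adjusted p = 0.055).

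The calls of Itgb1 and Cd44 were also lost without any 1 WT library or homo replicate 1 (adjusted p from 0.0502 to 0.138), that of Itga6 without any 1 WT library or homo replicate 1 (adjusted p from 0.119 to 0.189), and that of Cd81 without WT replicate 1 (0.50, adjusted p = 0.0649). A sex term also ended these 4 calls, at 0.32 for Itgb1 (adjusted p = 0.195), 0.31 for Cd44 (adjusted p = 0.145), 0.28 for Itga6 (adjusted p = 0.179) and 0.46 for Cd81 (adjusted p = 0.0542). Vcl, the exception, had 72.1, 61.1 and 74.3 CPM in WT, 64.1, 80.9 and 47.5 in het, with 46.8, 38.6 and 44.5 in homo. Homo lay below WT, and het overlapped both. The difference of -0.68 ± 0.19 (adjusted p = 0.036) was lost without any 1 WT library or homo replicate 1 or 2 (-0.60 to -0.76, adjusted p from 0.0610 to 0.122). The number of genes called fell from 10 to 6 without WT replicate 1 or homo replicate 1. Without the shares of all genes called in those fits, this cannot be told from a general loss of calls.

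Het pre-B had 2 calls that homo lacked. Ptk2, the FAK gene, had 3.84, 2.69 and 3.22 CPM in WT, 6.70, 9.13 and 7.12 in het, with 6.66, 4.32 and 3.61 in homo. The het libraries lay above all of WT, with a difference of 1.20 ± 0.27 (adjusted p = 0.0264), called when 1 library was left out only without het replicate 3. Itgb4 had 2.08, 1.61 and 2.90 CPM in WT, 0.312, 0 and 0.581 in het, with 1.27, 1.85 and 2.40 in homo, or 40, 6 and 24 counts in all.

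The Itgb4 difference in het was -2.62 ± 0.58 (adjusted p = 0.0219), lost without WT replicate 1 (-2.67, adjusted p = 0.074), WT replicate 3 (-2.37, adjusted p = 0.103) or het replicate 1 (-2.55, adjusted p = 0.107). Homo against het, tested directly, gave -0.55 ± 0.27 for Ptk2 (adjusted p = 0.447) and 2.24 ± 0.64 for Itgb4 (adjusted p = 0.116). No het call of the set was kept in every fit that left out 1 library, where the number called ranged from 0 without WT replicate 1 to 4 without het replicate 2 or 3. It was 2 without WT replicate 2 or het replicate 1 and 1 without WT replicate 3. Here too the shares of all genes called are not given, so a general loss of calls cannot be told apart.

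**Figure D4:**
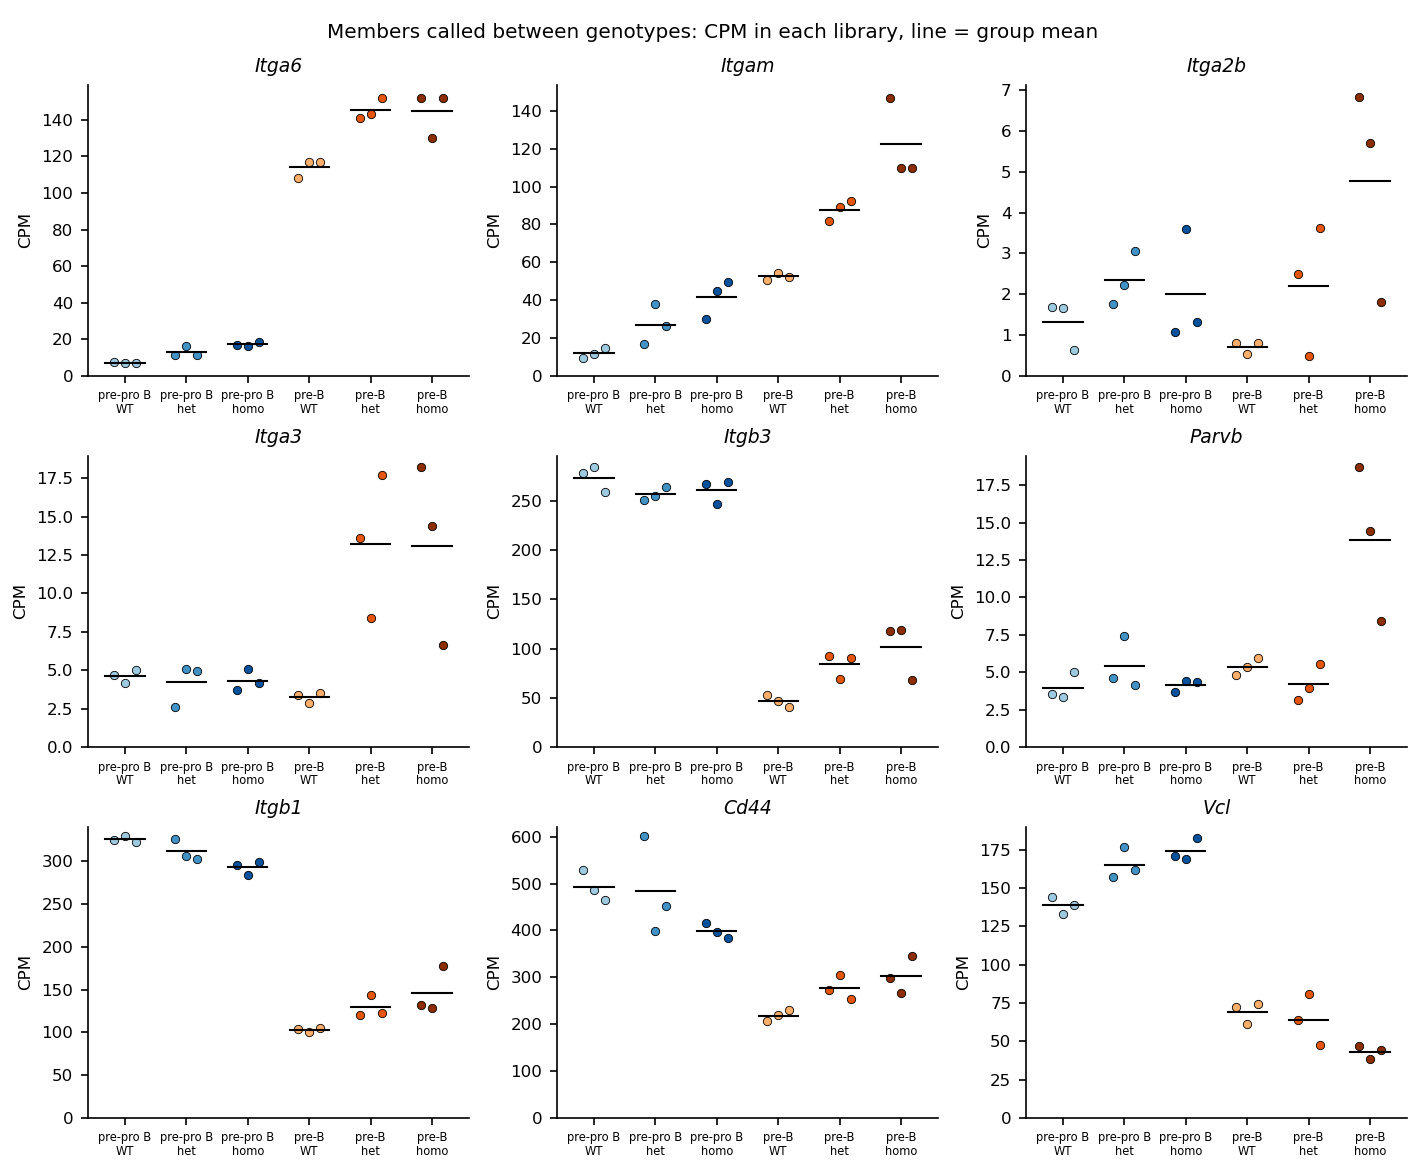
CPM of 9 genes called between genotypes, one point per library and a line at each group mean, with axes that start at 0. The group means of Itgam run WT, het, homo in both stages. Its het and homo libraries overlap in pre-pro B, and homo against het was not called in either stage. Itga3, Itgb3, Itga2b and Parvb are higher in every homo pre-B library than in any WT pre-B library, and Vcl is higher in homo pre-pro B and lower in homo pre-B.

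Whether homo differed from WT by the same amount in both stages was tested as an interaction over all 18 libraries. For 5 genes the log2 difference was larger in pre-B and for 3 it was smaller, 8 of 36 or 22.2%, where 14.5% of all genes were called. Vcl was called in opposite directions in the 2 stages and its 2 differences stood 1.01 ± 0.20 apart on the log2 scale (adjusted p = 0.00188). Itgb1 also changed sign, 0.64 ± 0.15 higher in pre-B (adjusted p = 0.00707), as did Cd44, 0.78 ± 0.18 (adjusted p = 0.00776), whose pre-pro B difference was not called.

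Itga3, Itgb3 and Parvb rose in pre-B and were not called in pre-pro B. Their gaps were 2.22 ± 0.47 (adjusted p = 0.00314), 1.24 ± 0.22 (adjusted p = 0.000768) and 1.40 ± 0.41 (adjusted p = 0.028). In pre-pro B the WT and homo means were 4.61 and 4.30 CPM for Itga3 and 274 and 261 for Itgb3. For Parvb they were 3.96 and 4.14. Itga6 rose by less in pre-B, a gap of -0.92 ± 0.18 (adjusted p = 0.00196). Cd9 rose in pre-pro B and had a log2 difference of -0.40 ± 0.33 in pre-B that was not called (adjusted p = 0.447), a gap of -1.42 ± 0.44 (adjusted p = 0.0357). For Itgam the gap was -0.56 ± 0.33 (adjusted p = 0.287) and for Itga2b 2.29 ± 0.90 (adjusted p = 0.1). Of the 8 calls, 6 were kept whichever library was left out. Parvb lost its call without pre-pro B WT replicate 3, pre-pro B homo replicate 1, pre-B WT replicate 1 or 2 or pre-B homo replicate 1 (1.14 to 1.39, adjusted p from 0.0565 to 0.102), and Cd9 without pre-pro B WT replicate 1 or 2, pre-pro B homo replicate 2 or 3, any 1 pre-B WT library or pre-B homo replicate 1 (-1.19 to -1.46, adjusted p from 0.0597 to 0.0976).

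**Figure D5:**
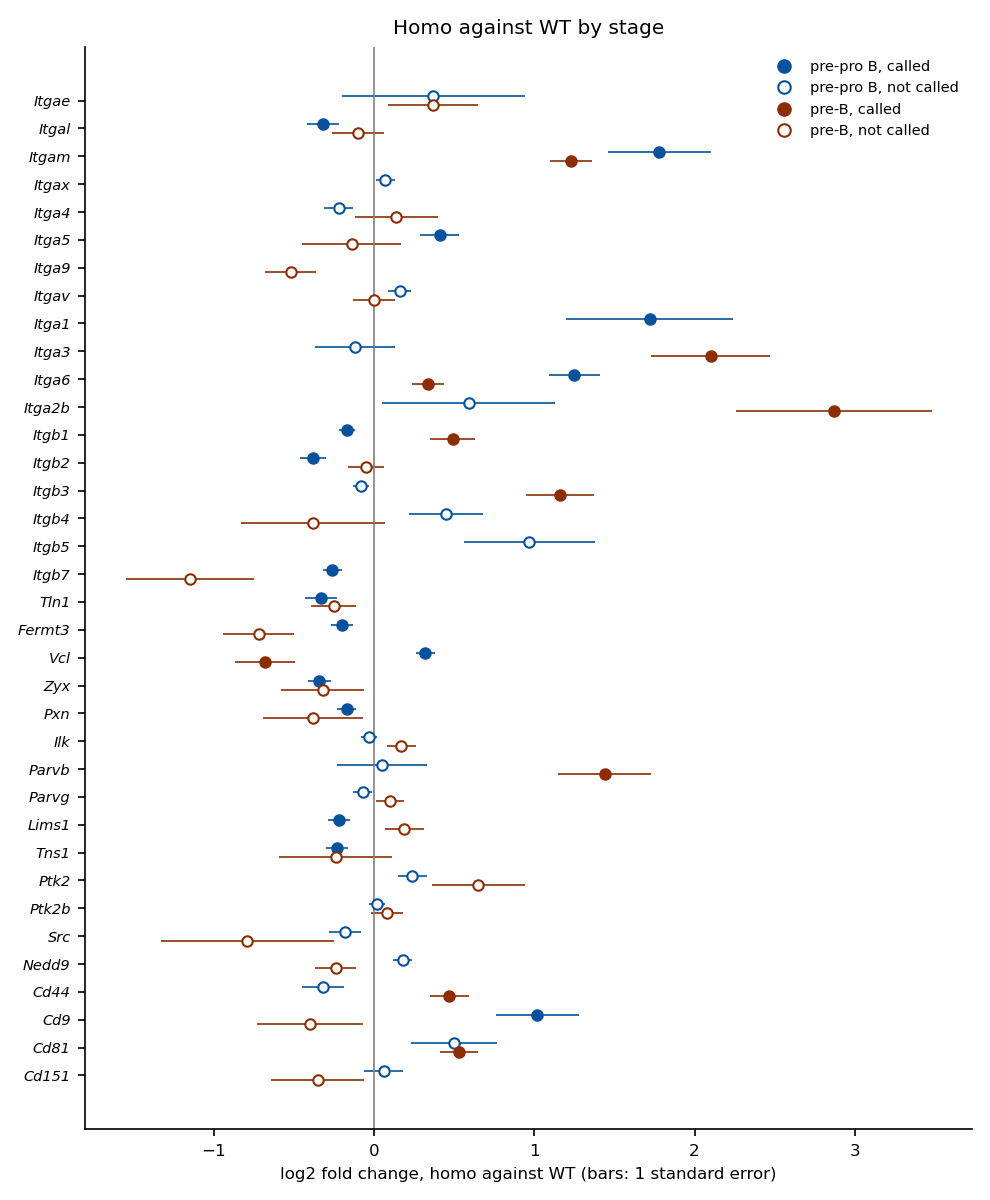
Log2 fold change of homo against WT with 1 standard error for the 36 described genes, in pre-pro B and pre-B, filled where the adjusted p was under 0.05; a gene below the count minimum of a stage has no point there. Itgam and Itga6 are called higher in both stages, and Itgb1 and Vcl are called in opposite directions.

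Other genes of integrin adhesion that are not in the set were examined as a list of 73, of which 60 could be tested in pre-pro B and 56 in pre-B. In homo pre-pro B, 7 were higher and 22 lower than in WT, or 48.3% beside 22.4% of all genes, with a median of -0.15. In homo pre-B 7 were higher and 5 lower, or 21.4% beside 15.9%, with a median of 0.00. In het pre-pro B none was called by edgeR, with 17 at an unadjusted p under 0.05 and 2 called by DESeq2, and in het pre-B 4 were higher and 3 lower, or 12.5% beside 6.18%. The interaction called 7 higher and 5 lower of 60, or 20% beside 14.5%. The WT stage contrast called 11 higher and 25 lower, or 60%, which is below the 64.3% of all genes. The falls in pre-pro B were again mostly of small size and included 9 of 17 signalling and 8 of 15 inside-out activation genes. Of all 12188 genes tested in that contrast, 1263 were called lower. The median of all genes was -0.08 between 100 and 300 CPM and -0.21 above 300 CPM.

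Among the largest changes of that list, Itga2, the collagen receptor chain also known as CD49b, went from 0.429 ± 0.437 CPM in WT to 3.81 ± 1.88 in het and 6.25 ± 2.43 in homo pre-pro B (SD, n = 3; log2 3.74 ± 0.64), and Skap1, an adaptor of inside-out activation in T and natural killer cells, from 1.06 to 5.64 and 6.86 CPM (log2 2.65 ± 0.50). The natural killer genes given above rose in the same libraries, and their part in these rises was not tested.

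Fn1, which encodes the ligand fibronectin, rose in pre-B from 5.48 ± 1.02 CPM in WT to 9.65 ± 1.39 in het and 19.5 ± 1.53 in homo (SD, n = 3), a log2 difference of 1.84 ± 0.20 in homo (edgeR adjusted p = 0.000226). Fyb, the adaptor that binds Skap1, had 1.10, 1.46 and 4.85 CPM in those groups (log2 1.94 ± 0.39). Itgad, a further beta 2 partner, had 2.14, 6.14 and 6.61 CPM (log2 1.77 ± 0.42). In WT pre-pro B, Fyb was at 795 CPM and Itgad at 68.4.

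Ikaros occupied several genes of the set. In cultured WT pre-B cells, 10 of the 42 genes (23.8%) had an Ikaros region in the gene or within 5 kb of it, beside 9.11% of all 23392 genes placed, and in homo cells 20 (47.6%) beside 19.4%. The genes of the set are long, with a median span of 56.4 kb against 15.2 kb for all genes, and a long gene has more room for a region. The WT list held 3683 regions and the homo list 8609, each from 1 library, so no difference between them could be tested. All 10 genes of the WT list were also in the homo list: Cd44, Itga5, Itga9, Itgam, Itgb2, Itgb3, Nedd9, Parva, Tln2 and Tns1. The 10 in the homo list alone were Fermt3, Itga3, Itga4, Itga7, Itga8, Itgav, Parvb, Pxn, Tln1 and Vcl.

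The strongest region was in Itga5, at chr15:103347138-103348016 in WT, with a fold over background of 16 as the authors give it, and 25.2 in homo. The next was in Itgam, at chr7:128100453-128101170, with 14.2 in WT and 15.2 in homo. Itgb3 had a region at chr11:104617154-104617581 with 9.22 and 10.2, and Itga9 one at chr9:118737255-118737626 with 8.84 and 10.2. All 4 lie within the gene. Itga3 had 1 in homo alone, at chr11:95041738-95042107, within 5 kb outside the gene (5.65), and Parvb 1 within the gene at chr15:84269668-84269907 (4.82).

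At start sites, the Cd44 promoter printed above lay under an Ikaros region in both WT (fold 5.35) and homo (6.74), with 179 of its bases and all 3 motif matches inside. The Vcl promoter was covered in homo over 261 bases with 2 of its 3 matches (3.49), and that of Tln1 in homo over 178 bases (5.80). The region at the Vcl promoter had a −log10 q-value of 2.23, below the stricter setting of 5. A promoter under a region was rare in these lists, 0.374% of the 27025 genes with a promoter entry in WT and 2.47% in homo. Of the genes called in homo pre-B, Itga2b, Itga6, Itgb1 and Cd81 had no Ikaros region in either cultured pre-B list.

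In thymocytes 10 genes of the set (23.8%) had an Ikaros region in WT, beside 9.58% of all genes, and 18 (42.9%) in homo, beside 26.1%. Itga5 and Itga9 were again among them, with folds of 11.8 and 7.04 in WT at the places named above. In thymocytes 3 genes of the set had a promoter under an Ikaros region in WT (Itgb1, Parvg and Vcl) and 5 in homo (Itgav, Itgb1, Tln1, Vcl and Zyx), beside 1.75% and 11.7% of genes with a promoter entry. Itga6 had 2 regions in WT thymocytes and none in pre-B, and Itgb1 1. No gene of the set had an Aiolos region in any of the 4 lists, which were short, with between 24 and 431 regions, so that at most 0.697% of all genes had one.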

How the data were processed

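The 18 RNA files held, as deposited, raw read counts per gene symbol, with 5 entries that name no gene (reads in no gene were 29.8% to 40.1% of a library); these entered neither the library totals nor any test. Per the submitters' processing notes the tools were HISAT2 2.1.0, MACS2 2.1.1 and STAR 2.7.0 and the build mm10, with no roles stated; which program counted the reads is not stated there. The 8 deposited ChIP-seq region lists give a score, a fold, which is the authors' ratio of signal to background, and −log10 p-values and −log10 q-values; the deposited values were used as given, with 1 library per list, and input samples were not analysed here.

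Counts were tested with edgeR 4.0.16 in R 4.3.3 (filterByExpr by group, TMM, robust quasi-likelihood F test, Benjamini-Hochberg over all genes tested, called at an adjusted p under 0.05). For genotypes the model held the 9 libraries of the stage, and for stages and the interaction all 18. The biological coefficient of variation was 8.13% in pre-pro B, 16.3% in pre-B and 12.4% over all. Depth was 1888871 to 9048055 gene counts. The 18 pairs of libraries within groups differed by more than counting noise (chi-square per degree of freedom 1.44 to 20.2), and each library counted as a replicate. This does not show that they came from separate mice. The largest values, 18.1 to 20.2, came from pairs of pre-B libraries of unequal depth. The script was tested on simulated data.

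Alternatives were size factors by the DESeq2 method, no count filter, DESeq2 1.42.0, a replicate block, library size as a covariate, a sex term, leaving out each library, and, chosen after seeing the data, XX libraries only. Regions were assigned to genes within 5 kb of the RefSeq gene (GRCm38.p6); alternatives were the gene alone, 20 kb and a −log10 q-value of at least 5. Per-library values are given for genes called in a genotype comparison and the 6 with the largest WT stage difference; of the further list of 73 genes, up to 6 with the largest change were chosen, of which 5 are named and 1 is not reported here. The members, the further list and the marker lists were chosen with earlier results of these data known.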

Additional observations from a re-analysis of the deposited data

Results flagged for a closer look

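In the set, 8 genes changed by different amounts between homo and WT in the 2 stages, by the interaction term of the edgeR fit over all 18 libraries; each value is the log2 difference in pre-B minus that in pre-pro B. The value was 2.22 for Itga3, 1.40 for Parvb, 1.24 for Itgb3, 0.78 for Cd44 and 0.64 for Itgb1. It was -0.92 for Itga6, -1.01 for Vcl and -1.42 for Cd9. Cd9 lost its call with library size as a covariate (-0.98, adjusted p = 0.141). Parvb lost its call with the replicate number as a block (1.32, adjusted p = 0.0788). A fit of the XX libraries alone holds 1 homo library per stage; it gave -1.19 for Cd9 (adjusted p = 0.0813) and 1.27 for Parvb (adjusted p = 0.0776).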

How the results depend on the processing

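The 3 stage contrasts and the interaction kept their number of called genes within 1.5 times under every alternative run. Over 4739 values of single genes, 4439 kept their side of the threshold, 202 lost a call, 98 gained one and 0 called values reversed. For homo against WT pre-pro B, 16 genes were called; the count was 1 with library size as a covariate, 2 with a sex term, 3 with the XX libraries alone and 3 to 9 when each library was left out. For het against WT pre-pro B (1 called) it was 3 with no count filter, 5 with DESeq2, 0 with library size as a covariate, 0 with a sex term, 0 with the XX libraries alone and 0 to 14 leaving out each library, and for homo against het (0 called) 0 to 1. For homo against WT pre-B (10 called) leaving out each library gave 6 to 10. For het against WT pre-B (5 called) it was 17 with library size as a covariate, 11 with the XX libraries alone and 0 to 4 leaving out each library; for homo against het pre-B (1 called) 2 with DESeq2, 9 with library size as a covariate and 0 to 3. Leaving out libraries also means fewer samples, and the fit of the XX libraries alone has 1 homo library per stage. The cause of the other shifts was not tested. The shares of all genes called in the alternative fits are not given here. These counts therefore do not tell a change of the set from a general change in calls. In homo cultured pre-B, 27 genes rather than 20 had an Ikaros region within 20 kb. That is 64.3% of the set beside 30.7% of all genes, where 5 kb gave 47.6% beside 19.4%. The stricter settings gave 17 genes with the gene alone (40.5% beside 13.9%). With a −log10 q-value of at least 5 there were 16 (38.1% beside 12.9%).

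Replicate numbers are shared between groups, but the labels do not say what they mark. Deviations of same-numbered libraries correlated between stages with r from -0.0602 to 0.26, with 8 of 9 libraries closest to their own number. Same-numbered libraries of a genotype were also of the same sex by counts in both stages. They may therefore come from the same mouse, and the main stage and interaction tests treated them as independent. Between genotypes r ran from -0.614 to 0.17. Pairs were not modelled in the main fits, and a replicate block was run as an alternative. With the replicate block, 6 genes were called for homo against WT pre-B, 3 for het against WT and 0 for homo against het; the other counts moved by less than 1.5 times, but not always with the same genes. The block ended the calls of Itga5 (0.41, adjusted p = 0.0508) and Pxn (-0.17, adjusted p = 0.0639) in homo against WT pre-pro B, of Itga6 in het against WT pre-pro B (0.86, adjusted p = 0.0572) and of Parvb in the interaction (1.32, adjusted p = 0.0788). In homo against WT pre-B it ended those of Itga6 (0.34, adjusted p = 0.117), Itgb1 (0.49, adjusted p = 0.0899), Vcl (-0.69, adjusted p = 0.0911) and Cd44 (0.47, adjusted p = 0.0874). In het against WT pre-B it ended those of Itgb3 (0.86, adjusted p = 0.082) and Ptk2 (1.22, adjusted p = 0.0789). Parvb lost its call in homo against het pre-B (1.79, adjusted p = 0.0927).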
